A study of Homo sapiens with 9 samples.

Results

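The mitochondrial ribosomal protein genes were taken as all genes whose symbol begins with MRPL or MRPS followed by a number and, in some cases, a letter from A to C. This rule found 78 genes, 49 MRPL and 29 MRPS, among the 60966 genes of the tables, and it used no expression value. Their RNA was measured by poly(A)-selected, paired-end RNA-seq in H1299 cells, a human non-small cell lung cancer line, harvested 48 h after siRNA transfection. The 9 samples fall into groups of 3, namely cells that received Scramble, a control siRNA, and cells that received 1 of the siRNAs against FIBP, called Si-FIBP#1 and Si-FIBP#2. These RNA-seq samples cover 1 cell line and transient transfection. The study's methods say in general that experiments were done as independent repeats, but neither they nor the labels say whether the 3 samples of a group came from separate cultures, so the p-values measure the spread between these samples, which may be technical.

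The human mitochondrion has its own ribosome, which translates the mRNAs of the mitochondrial genome into core subunits of the respiratory chain and of ATP synthase. Its ribosomal RNAs come from the mitochondrial genome, whereas all its proteins are encoded in the nucleus, made in the cytosol and imported. Some of these proteins have bacterial counterparts, and others are found in mitochondria only. The L and S of the symbols stand for the large and the small subunit, although structures of the ribosome placed MRPS30 and MRPS18A in the large subunit, and MRPS36 is known as a subunit of the oxoglutarate dehydrogenase complex and not of the ribosome.

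The promoters of the members held strings bound by factors known to act on such genes. Members of the ETS family, among them GABP, bind CCGGAAG, YY1 binds AAGATGGCG and NRF1 binds GCATGCGC. RefSeq promoters (GRCh38.p14, 250 bases before to 50 after the start) were at hand for 69 of the 78 members, and these strings, searched on both strands, are descriptions and not shown to be bound here. The ETS string was present in 42% of member promoters, against 20.2% of the promoters of 10204 genes tested below (1 FPKM or more in at least 3 samples) and 10.7% of all 27305. The YY1 string was present in 18.8%, against 4.14% and 1.85%, and the NRF1 string in 8.7%, against 5.94% and 3.27%. In all, 39 of the 69 (56.5%) held at least 1 of the 3, against 27.6% of tested genes.

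The 60 bases before the start are shown for the 6 members that, among those with the largest differences described below, held a whole ETS string there, so that rises and falls can be set beside each other, with the ETS string on either strand in capitals. MRPL54 and MRPS21 rose with both siRNAs, MRPS10, MRPL3 and MRPL47 fell with both, and MRPS34 fell in Si-FIBP#1 cells. Positions are chr19:3762622-3762681 (plus strand) for MRPL54, chr1:150293801-150293860 (plus) for MRPS21, chr6:42217862-42217921 (minus) for MRPS10, chr3:131502972-131503031 (minus) for MRPL3, chr3:179604639-179604698 (minus) for MRPL47 and chr16:1773135-1773194 (minus) for MRPS34.
MRPL54: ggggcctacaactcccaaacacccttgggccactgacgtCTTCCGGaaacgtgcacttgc
MRPS21: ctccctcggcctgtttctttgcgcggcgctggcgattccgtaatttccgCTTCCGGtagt
MRPS10: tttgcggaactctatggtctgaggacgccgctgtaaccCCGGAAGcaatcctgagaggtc
MRPL3: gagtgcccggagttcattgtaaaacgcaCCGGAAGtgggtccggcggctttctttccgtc
MRPL47: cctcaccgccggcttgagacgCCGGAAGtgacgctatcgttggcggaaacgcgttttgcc
MRPS34: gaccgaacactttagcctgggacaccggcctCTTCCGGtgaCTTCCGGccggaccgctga

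FIBP was measured at 88.38, 79.49 and 77.74 FPKM (fragments per kilobase of transcript, scaled to library size) in the 3 Scramble samples, at 7.49, 7.77 and 4.3 FPKM in Si-FIBP#1 cells, and at 7.13, 5.92 and 8.21 FPKM in Si-FIBP#2 cells. Its log2 difference from Scramble was -3.50 ± 0.18 (SE, FDR = 9.4e-07, limma) in Si-FIBP#1 cells and -3.36 ± 0.18 (FDR = 1.42e-06) in Si-FIBP#2 cells, and the siRNAs differed from each other by 0.13 ± 0.18 (FDR = 0.686). In Scramble 13894 to 14124 genes reached 1 FPKM per sample, against 14406 to 14587 in Si-FIBP#1 cells and 14661 to 14715 in Si-FIBP#2 cells. The factors by which median ratio scaling, used below, divided the samples were 0.934 to 0.972, 1.011 to 1.023 and 1.042 to 1.070. Steps among low values gave a rough depth estimate of 20000000 to 23850000 fragments per sample. KRT8, KRT18 and VIM (keratins and vimentin) were expressed and were lower with both siRNAs, whereas KRT19 and EPCAM reached at most 0.29 FPKM in any sample. The listed markers of alveolar type 2 cells, leukocytes and endothelial cells reached at most 0.28 FPKM. The 5 fibroblast markers summed to 0.24 to 0.89 FPKM in Scramble, 1.09 to 1.88 in Si-FIBP#1 cells and 1.15 to 3.32 in Si-FIBP#2 cells. Of these, COL1A1 reached 1.59 FPKM and DCN 1.42, whereas PDGFRB, COL3A1 and COL1A2 reached at most 0.41, 0.13 and 0.02 in any sample. The part of the difference between these sums in the results below was not tested.

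All 78 members were expressed in these cells, and each of them passed the filter of 1 FPKM in at least 3 samples. In Scramble cells their mean levels ran from 12.5 to 312.5 FPKM, a 24.9-fold range, with a median of 62.1 FPKM. The median was 68.5 FPKM over the MRPL genes and 51.4 FPKM over the MRPS genes. The spread between samples of a group was small, with a median coefficient of variation of 4.79% in Scramble, 5.11% in Si-FIBP#1 cells and 6.09% in Si-FIBP#2 cells.

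MRPL51, a mitochondria-specific protein of the large subunit, was the most abundant member, at 297.23, 319.25 and 321.11 FPKM in the Scramble samples. MRPL41, also specific to mitochondria, followed at 243.32, 231.54 and 225.18 FPKM. MRPS24, a counterpart of a bacterial small-subunit protein, came next at 193.2, 188.55 and 182.5 FPKM. These 3 did not overlap one another in Scramble. The least abundant were MRPL50 (11.71, 12.33 and 13.55 FPKM), MRPS14 (11.41, 14.45 and 12.41 FPKM) and MRPL57 (13.66, 12.92 and 14.15 FPKM), whose Scramble ranges overlapped, so that their order was not resolved.

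Single members differed from Scramble in both directions after siRNA against FIBP. On the log2(FPKM + 1) scale, 29 of the 78 members were higher in Si-FIBP#1 cells, 11 were lower and 38 did not pass the FDR of 0.05. In that comparison 47.7% of the 14985 genes tested were called (27.8% of the genes tested were higher and 19.9% lower), and the share of members called was 51.3%. With Si-FIBP#2, 38 members were higher, 12 were lower and 28 did not pass, a share of 64.1%, against a background of 48.8% of all genes (31.1% higher, 17.7% lower). On this scale no member passed the study's threshold of an FDR below 0.05 with a fold change above 2 against Scramble, a threshold that 5.66% of all genes passed in Si-FIBP#1 cells (2.55% higher, 3.11% lower) and 5.05% in Si-FIBP#2 cells (2.92% higher, 2.13% lower). With the 6 siRNA samples as 1 group, 35 members were higher and 15 lower, against a background of 53% of all genes (32.6% higher, 20.3% lower), and no member passed the 2-fold threshold, against 4.81% (2.36% higher, 2.45% lower). The largest log2 difference was 0.99 (MRPL10, Si-FIBP#1). MRPL10 lay at the threshold, with a mean FPKM of 201.4% of Scramble in Si-FIBP#1 cells, and passed it under 4 of the 17 other settings, namely a pseudocount of 0.1 (1.01) and without Scramble replicate 1 (1.02), Scramble replicate 3 (1.01) or Si-FIBP#1 replicate 3 (1.03). MRPS10 (-1.08) and MRPS12 (-1.02) passed it in Si-FIBP#2 cells after median ratio scaling. With a filter of 5 FPKM, 39.7% of the members were higher and 14.1% lower in Si-FIBP#1 cells, and 50% and 15.4% in Si-FIBP#2 cells. Of all genes 55.8% were then called with Si-FIBP#1 (31.1% higher, 24.7% lower) and 57% with Si-FIBP#2 (34.4% higher, 22.6% lower). In bulk samples fewer transcripts per cell cannot be told apart from fewer cells that express a gene.

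**Figure D1:**
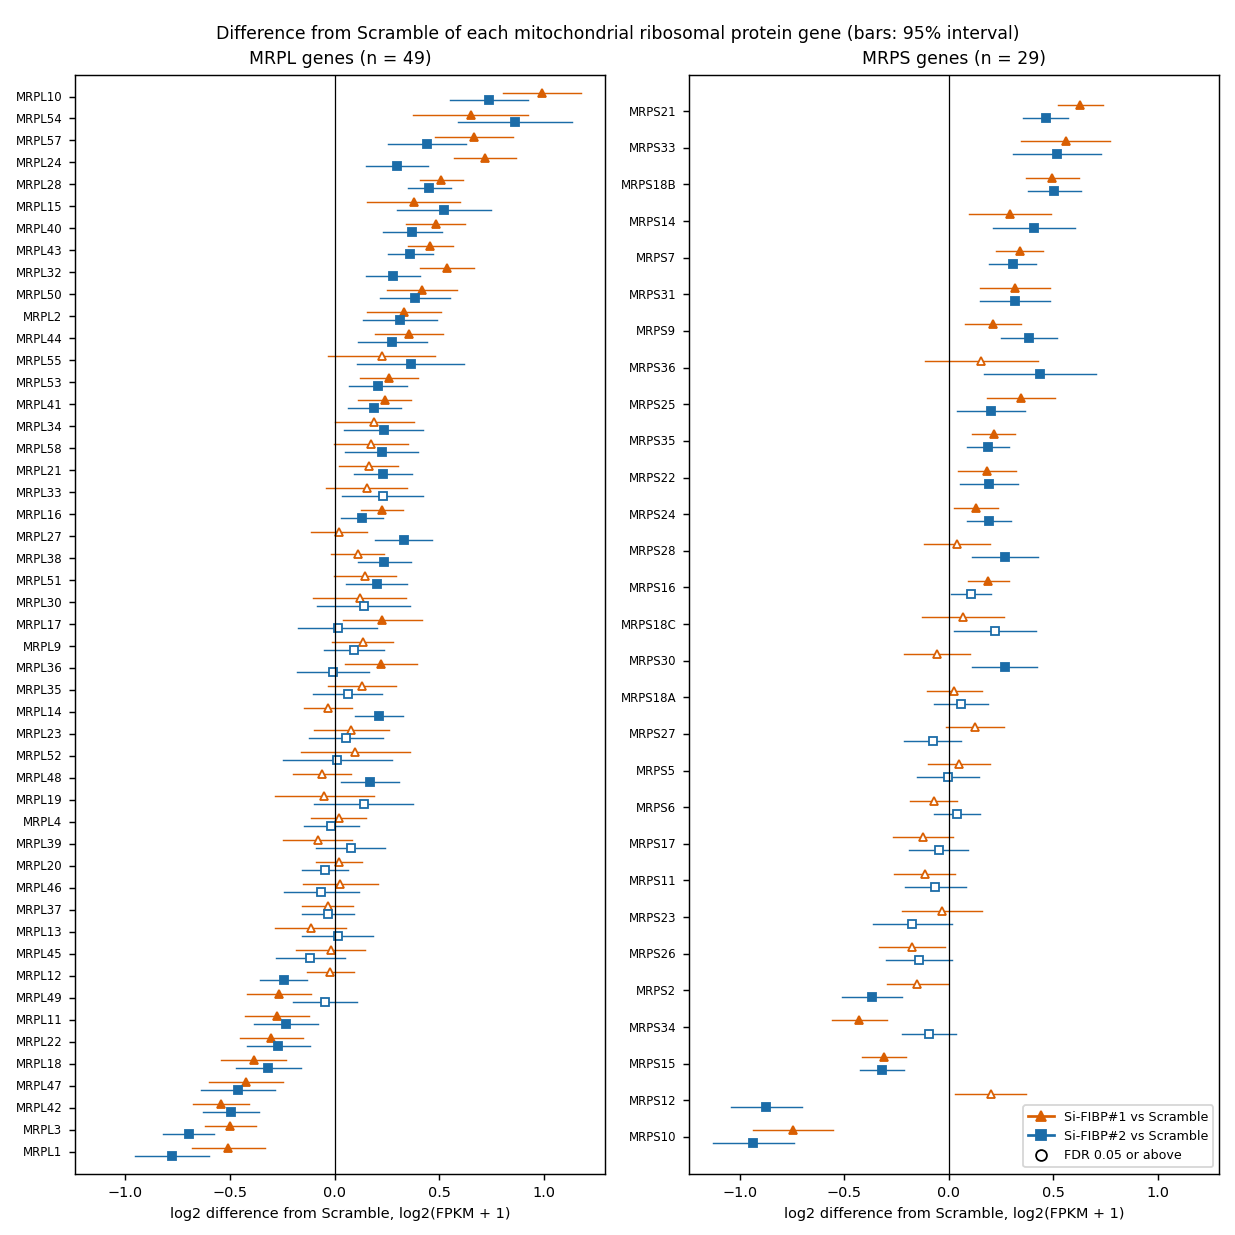
Log2 difference from Scramble on the log2(FPKM + 1) scale (x axis) for each MRPL gene (left) and MRPS gene (right), ordered by the sum over both siRNAs, with 95% intervals. Triangles stand for Si-FIBP#1, squares for Si-FIBP#2 and open symbols for an FDR of 0.05 or above. Members run from -0.93 (MRPS10, Si-FIBP#2) to 0.99 (MRPL10, Si-FIBP#1), and MRPS12 is the member on which the symbols of the siRNAs lie farthest apart.

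The net direction of the set was small and depended on scaling. The median log2 difference of the members was 0.128 in Si-FIBP#1 cells and 0.154 in Si-FIBP#2 cells, where the median of all genes was 0.0733 and 0.111. Relative to all genes the members stood 0.0545 and 0.043 higher. Single samples moved these gaps, to 0.0239 and 0.0207 without Scramble replicate 1, to 0.0256 in Si-FIBP#1 cells without Si-FIBP#1 replicate 3, and in Si-FIBP#2 cells to 0.0279 without Si-FIBP#2 replicate 3 and 0.0661 without Scramble replicate 3. After median ratio scaling, which moved the median of all genes to -0.0164 and -0.0183, the members' medians were 0.0267 and 0.00901. The gaps were then 0.0431 and 0.0273. The calls then split into 19 higher and 16 lower in Si-FIBP#1 cells, and into 15 higher and 23 lower in Si-FIBP#2 cells. As shares of the members these were 24.4% and 20.5%, and 19.2% and 29.5%, where all genes had 21% higher and 25.5% lower, and 20.5% and 26.5%. On a TPM scale they split into 25 higher and 13 lower (32.1% and 16.7%, against 23.8% and 21.2% of all genes), and into 37 higher and 12 lower (47.4% and 15.4%, against 30.2% and 17.1%).

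The summed level also depended on scaling, with the siRNA samples above Scramble except after median ratio scaling. The 49 MRPL genes summed to 3748 ± 37.7 FPKM (SD, n = 3) in Scramble, 4109 ± 113 in Si-FIBP#1 cells and 4064 ± 120 in Si-FIBP#2 cells. The 29 MRPS genes summed to 1874 ± 9.02, 2017 ± 44.5 and 1945 ± 25.7 FPKM. For each subunit name all 6 siRNA samples lay above all 3 Scramble samples. After median ratio scaling the sum over all 78 was 5930 ± 168 FPKM in Scramble, 6020 ± 184 in Si-FIBP#1 cells and 5710 ± 92.7 in Si-FIBP#2 cells, and both siRNA groups overlapped Scramble. The ratio of the MRPL to the MRPS sum does not depend on scaling, and it was 2.00 ± 0.0112 in Scramble, 2.04 ± 0.0328 in Si-FIBP#1 cells and 2.09 ± 0.043 in Si-FIBP#2 cells. The Scramble and Si-FIBP#1 samples overlapped in this ratio, whereas the lowest Si-FIBP#2 sample (2.05) lay above the highest Scramble sample (2.01). This rested on MRPS12. Without that gene, left out after its values were seen, the ratio was 2.17 to 2.19 in Scramble, 2.20 to 2.26 in Si-FIBP#1 cells, above Scramble, and 2.14 to 2.24 in Si-FIBP#2 cells, overlapping it.

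**Figure D2:**
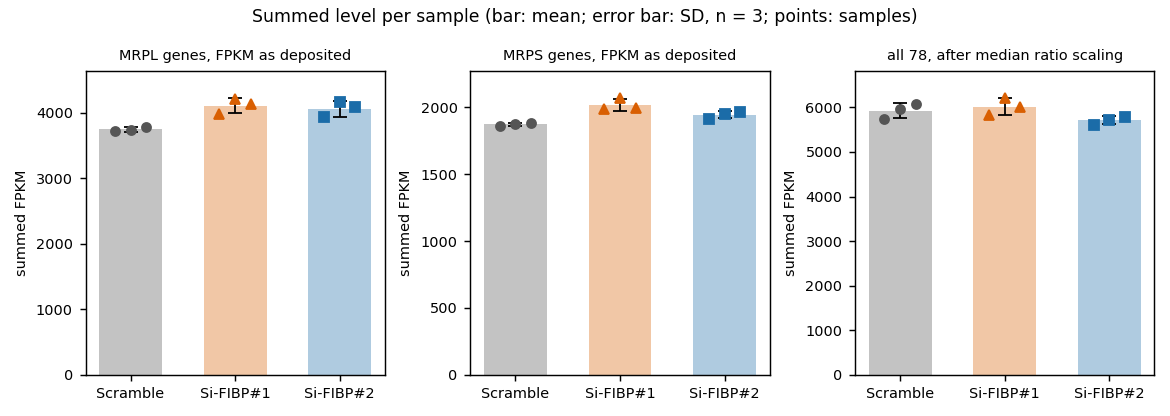
Summed FPKM (y axis) of the MRPL genes, the MRPS genes and all 78 members after median ratio scaling, with bars for the mean, error bars for the SD (n = 3) and points for samples. As deposited, the siRNA samples lie above Scramble (MRPL, 3748 against 4109 and 4064 FPKM), and after scaling each siRNA group overlaps Scramble.

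Some members kept their call under every setting. The comparisons of the siRNAs with Scramble share the Scramble samples, so they are not independent. Of the 78 members, 26 were called higher with both siRNAs, 9 lower with both and 0 in opposite directions, 5 were called in Si-FIBP#1 cells alone, 15 in Si-FIBP#2 cells alone and 23 with neither. Of all genes tested, 21.8% were called higher with both, 13.7% lower with both, 0.487% in opposite directions, 11.7% in Si-FIBP#1 cells alone, 12.8% in Si-FIBP#2 cells alone and 39.5% with neither, against 33.3%, 11.5%, 0%, 6.41%, 19.2% and 29.5% of the members. All 6 siRNA samples lay above all 3 Scramble samples for 29 members and below them for 11, where 26.3% and 16.5% of all genes did so (42.9% in either direction). Under all of the 17 other settings tried, including the 2 other scalings and leaving out each sample in turn, 11 members stayed higher with both siRNAs (MRPL10, MRPL28, MRPL40, MRPL43, MRPL50, MRPL54, MRPL57, MRPS7, MRPS18B, MRPS21 and MRPS33) and 8 stayed lower with both (MRPL1, MRPL3, MRPL18, MRPL22, MRPL42, MRPL47, MRPS10 and MRPS15). The same count was not made over all genes, so it describes these single members and not the set.

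**Figure D3:**
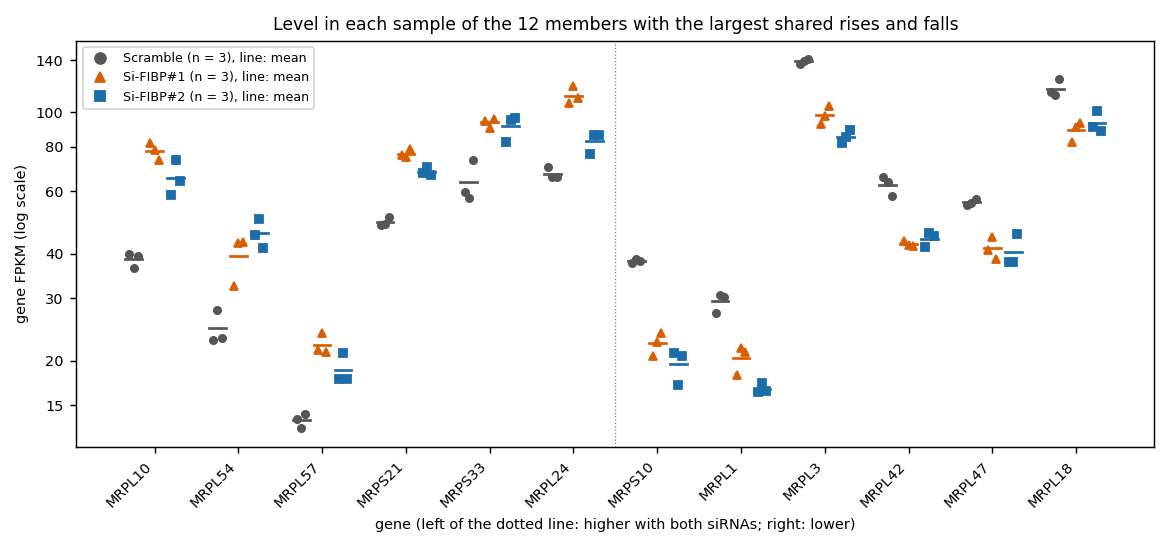
Gene FPKM on a log axis (y axis) in each of the 9 samples for the 6 members with the largest mean rise and the 6 with the largest mean fall among those called in the same direction with both siRNAs, with a line at each group mean. In all 12 the 6 siRNA samples lie beyond the 3 Scramble samples, for example 58.38 to 81.81 against 36.39 to 40.01 FPKM for MRPL10.

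Among the members that rose, MRPL10 had the largest mean rise over both siRNAs, although MRPL54 rose most in Si-FIBP#2 cells. This protein anchors the L7/L12 stalk, on which translation factors act, to the large subunit. It was measured at 40.01, 36.39 and 39.41 FPKM in Scramble, 81.81, 78.07 and 73.39 FPKM in Si-FIBP#1 cells, and 58.38, 73.35 and 63.91 FPKM in Si-FIBP#2 cells. All siRNA samples lay above all Scramble samples, and the log2 differences were 0.99 ± 0.083 (SE, FDR = 1.36e-05) and 0.74 ± 0.083 (FDR = 9.02e-05). One transcript of 1749 nt carried 89.8% of its FPKM in Scramble, 93.2% in Si-FIBP#1 cells and 94.3% in Si-FIBP#2 cells.

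The other stalk genes did not rise. MRPL12, the stalk protein itself, was measured at 131.08, 124.93 and 126.68 FPKM in Scramble, 131.67, 121.88 and 123.76 FPKM in Si-FIBP#1 cells and 105.49, 104.31 and 113.19 FPKM in Si-FIBP#2 cells. It fell in Si-FIBP#2 cells (log2 -0.24 ± 0.05, FDR = 0.00313), while in Si-FIBP#1 cells the value was -0.021 ± 0.05 (FDR = 0.76). MRPL11, at the base of the stalk, was lower with both siRNAs, by -0.28 ± 0.069 (FDR = 0.0086) and -0.23 ± 0.069 (FDR = 0.019), although the call was lost under 1 other setting in Si-FIBP#1 cells and under 3 in Si-FIBP#2 cells. A second protein-coding gene model on the same strand, AC139530.2, overlapped 68.2% of the exonic bases of MRPL12.

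MRPL54 and MRPL57, both large-subunit proteins specific to mitochondria, rose from low levels. MRPL54 was measured at 22.83, 27.84 and 23.21 FPKM in Scramble, 32.38, 42.82 and 43.05 FPKM in Si-FIBP#1 cells and 45.23, 49.98 and 41.51 FPKM in Si-FIBP#2 cells, with log2 differences of 0.65 ± 0.12 (FDR = 0.00184) and 0.86 ± 0.12 (FDR = 0.000347). MRPL57 went from 12.92 to 14.15 FPKM in Scramble to 21.18 to 23.94 in Si-FIBP#1 cells and 17.7 to 21.07 in Si-FIBP#2 cells, with log2 differences of 0.67 ± 0.084 (FDR = 0.000166) and 0.44 ± 0.084 (FDR = 0.00188). Neither gene overlapped between Scramble and siRNA samples.

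MRPL24, the counterpart of a bacterial protein that sits near the exit of the peptide tunnel, rose more in Si-FIBP#1 cells than in Si-FIBP#2 cells. It was measured at 70.33, 65.65 and 65.53 FPKM in Scramble, 106.33, 118.1 and 109.52 FPKM in Si-FIBP#1 cells, and 76.03, 86.29 and 86.45 FPKM in Si-FIBP#2 cells. The 3 groups did not overlap. The log2 differences from Scramble were 0.72 ± 0.065 (FDR = 2.24e-05) and 0.30 ± 0.065 (FDR = 0.00429), and the siRNAs differed by -0.42 ± 0.065 (FDR = 0.00339). With median ratio scaling the Si-FIBP#2 value was 0.15 (FDR = 0.0742), and the call was lost.

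Among small-subunit genes, MRPS21, the counterpart of a small bacterial protein, went from 48.11, 48.31 and 50.73 FPKM to 75.8, 74.61 and 78.71 in Si-FIBP#1 cells and to 67.37, 70.24 and 66.4 in Si-FIBP#2 cells, with log2 differences of 0.63 ± 0.048 (FDR = 7.52e-06) and 0.46 ± 0.048 (FDR = 5.21e-05). MRPS33, which is specific to mitochondria, went from 57.46 to 73.56 FPKM in Scramble to 90.43 to 95.74 and 82.34 to 96.53, with log2 differences of 0.56 ± 0.094 (FDR = 0.00098) and 0.52 ± 0.094 (FDR = 0.0015). Its transcripts also shifted. The transcript that held 51.6% of its FPKM in Scramble held 28.2% in Si-FIBP#1 cells and 34.7% in Si-FIBP#2 cells, which was the largest shift among the members. In all, the most abundant transcript moved by more than 10 percentage points in 8 of the 78 members with either siRNA.

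Among the members that fell, MRPS10, of the head of the small subunit, fell most. It was measured at 37.55, 38.54 and 38.23 FPKM in Scramble, 20.62, 22.54 and 23.99 FPKM in Si-FIBP#1 cells and 21.06, 17.03 and 20.56 FPKM in Si-FIBP#2 cells. The siRNA samples lay below all Scramble samples, and the log2 differences were -0.74 ± 0.086 (FDR = 9.92e-05) and -0.93 ± 0.086 (FDR = 2.65e-05). Transcripts assembled by the authors held 16.9% to 24.1% of its FPKM, and both calls stood without them.

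MRPL1, the counterpart of the protein of the mobile L1 stalk, and MRPL3, which reaches toward the peptidyl transferase centre in the bacterial ribosome, fell with both siRNAs. MRPL1 was measured at 27.24, 30.66 and 30.11 FPKM in Scramble, 18.22, 21.77 and 21.13 in Si-FIBP#1 cells, and 16.32, 17.29 and 16.45 in Si-FIBP#2 cells, with log2 differences of -0.51 ± 0.078 (FDR = 0.000585) and -0.78 ± 0.078 (FDR = 4.51e-05). MRPL3, one of the abundant members, was measured at 136.61, 139.07 and 140.95 FPKM in Scramble, 92.45, 97.73 and 104.23 in Si-FIBP#1 cells, and 81.67, 85.32 and 88.93 in Si-FIBP#2 cells, with log2 differences of -0.50 ± 0.055 (FDR = 7.28e-05) and -0.70 ± 0.055 (FDR = 1.04e-05). The 3 groups did not overlap for either gene, and the siRNAs differed by -0.27 (FDR = 0.0458) for MRPL1 and by -0.20 (FDR = 0.0374) for MRPL3, calls that were lost under 10 of the 17 other settings for each gene.

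MRPL42, specific to mitochondria, MRPL47, a counterpart of a protein at the tunnel exit, and MRPL18, of the central protuberance, fell with both siRNAs. MRPL42 fell from 58.18 to 65.57 FPKM in Scramble to 41.91 to 43.33 and 41.78 to 45.72 FPKM, with log2 differences of -0.54 ± 0.059 (FDR = 7.25e-05) and -0.49 ± 0.059 (FDR = 0.000133). MRPL47 fell from 54.95 to 57.01 FPKM to 38.71 to 44.59 and 37.88 to 45.36 FPKM, with log2 differences of -0.42 ± 0.079 (FDR = 0.0018) and -0.46 ± 0.079 (FDR = 0.00107). MRPL18 fell from 111.83 to 124.06 FPKM to 82.67 to 93.34 and 88.73 to 100.93 FPKM, with log2 differences of -0.39 ± 0.069 (FDR = 0.0014) and -0.32 ± 0.069 (FDR = 0.00416). None of the 3 overlapped Scramble. Assembled transcripts held 19.2% to 34.5% of MRPL47 and 31.4% to 40% of MRPL18.

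The siRNAs differed from each other in 13 members, 5 higher and 8 lower in Si-FIBP#2 cells, a share of 16.7% where 15.4% of all genes differed (9.58% higher, 5.8% lower). The count ran from 4 without a filter to 16 without Si-FIBP#2 replicate 2, and was 6 without Si-FIBP#2 replicate 3. In these fits 1.53%, 19.1% and 8.55% of all genes were called. MRPS12 differed most, and it was the member past the 2-fold threshold, which 0.561% of all genes passed. MRPS12 (chr19:38930548-38933162, GRCh38, plus strand) encodes the counterpart of bacterial S12, a protein of the decoding centre. It was measured at 154.8, 154.11 and 148.1 FPKM in Scramble, 175.43, 183.82 and 166.43 FPKM in Si-FIBP#1 cells, and 79.54, 93.8 and 75.81 FPKM in Si-FIBP#2 cells. The groups did not overlap, and the Si-FIBP#1 samples lay above and the Si-FIBP#2 samples below Scramble.

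Its log2 difference from Scramble was -0.87 ± 0.076 (FDR = 1.85e-05) in Si-FIBP#2 cells and 0.20 ± 0.076 (FDR = 0.0528) in Si-FIBP#1 cells, and the siRNAs differed by -1.07 ± 0.076 (FDR = 8.65e-05). The Si-FIBP#1 value passed the threshold under 5 of the other settings. Its main transcripts were not tested singly. The transcript of 1207 nt went from 78.75 to 89.9 FPKM in Scramble to 37.22 to 50.01, that of 929 nt from 54.23 to 55.46 to 31.95 to 36.81, and that of 1220 nt from 7.99 to 12.45 to 5.93 to 8.57. The Si-FIBP#2 samples lay below all Scramble samples in the former 2 transcripts and overlapped them in the last. SARS2, which encodes the mitochondrial seryl-tRNA synthetase, starts on the opposite strand and overlaps MRPS12 over 349 exonic bases, 16.3% of the MRPS12 exons. Unspliced fragments that lie wholly within such a stretch cannot be assigned without strand. SARS2 was measured at 28.88, 26.27 and 27.48 FPKM in Scramble, 30.44, 29.09 and 30.32 in Si-FIBP#1 cells, and 33.35, 46.09 and 37.96 in Si-FIBP#2 cells. With Si-FIBP#2 it was higher, by 0.48 (FDR = 0.00337), where MRPS12 was lower.

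**Figure D4:**
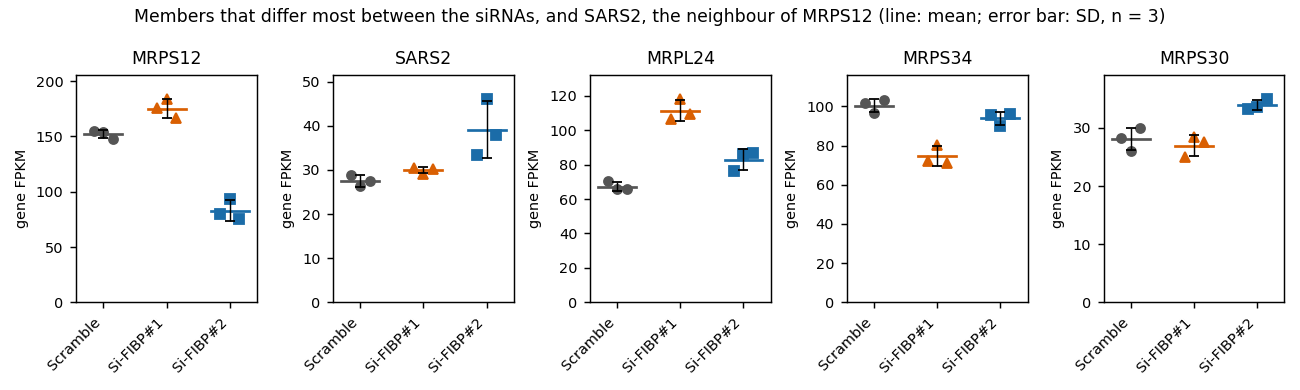
Gene FPKM (y axis, from 0) in each sample of the 4 members that differ most between the siRNAs and of SARS2, which overlaps MRPS12 on the opposite strand, with lines for means and error bars for the SD (n = 3). MRPS12 lies between 75.81 and 93.8 FPKM in Si-FIBP#2 cells and between 148.1 and 183.82 FPKM in the other 6 samples.

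MRPS34, a mitochondria-specific protein that binds the small-subunit rRNA, fell in Si-FIBP#1 cells. It was measured at 101.54, 96.71 and 103.17 FPKM in Scramble, 72.01, 80.38 and 71.22 in Si-FIBP#1 cells, and 95.56, 90.25 and 96.4 in Si-FIBP#2 cells. The log2 difference was -0.43 ± 0.058 (FDR = 0.000276) in Si-FIBP#1 cells and -0.094 ± 0.058 (FDR = 0.209) in Si-FIBP#2 cells, and the siRNAs differed by 0.33 ± 0.058 (FDR = 0.00592). MRPS30 was measured at 28.23, 26.1 and 29.99 FPKM in Scramble, 24.93, 28.48 and 27.52 in Si-FIBP#1 cells, and 33.23, 33.66 and 34.99 in Si-FIBP#2 cells. It rose in Si-FIBP#2 cells by 0.27 ± 0.07 (FDR = 0.0108), a call lost after median ratio scaling (0.12, FDR = 0.205), and the siRNAs differed by 0.32 ± 0.07 (FDR = 0.0144). The difference between siRNAs passed under all 17 other settings for MRPS12, MRPL24, MRPS34 and MRPL14.

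The members of the MRPS18 group, which are paralogues of 1 bacterial protein, are given side by side. MRPS18B was measured at 92.49, 92.48 and 91.38 FPKM in Scramble, 124.77, 139.21 and 126.93 in Si-FIBP#1 cells, and 129.07, 125.26 and 139.43 in Si-FIBP#2 cells. It rose with both siRNAs, by 0.49 ± 0.057 (FDR = 9.7e-05) and 0.50 ± 0.057 (FDR = 8.71e-05). MRPS18A ranged from 47.37 to 52.64 FPKM over all 9 samples (FDR = 0.732 and 0.438), and MRPS18C from 30.53 to 43.15 FPKM (FDR = 0.54 and 0.0603), so no difference passed in these paralogues. A test of the difference between the paralogues was not run. MRPL58, a peptidyl-tRNA hydrolase built into the large subunit, gave 0.17 ± 0.078 (FDR = 0.0925) and 0.23 ± 0.078 (FDR = 0.0372), and the latter call was lost under 9 settings. MRPS36 gave 0.15 ± 0.12 (FDR = 0.318) and 0.44 ± 0.12 (FDR = 0.0137), and the latter call was lost after median ratio scaling (0.29, FDR = 0.0903).

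The 3 most abundant members differed by at most 0.24 on the log2 scale. MRPL51 was measured at 323.82, 352.47 and 359.98 FPKM in Si-FIBP#1 cells and at 328.49, 384.05 and 366.84 FPKM in Si-FIBP#2 cells, with log2 differences of 0.14 ± 0.066 (FDR = 0.101) and 0.20 ± 0.066 (FDR = 0.0302), the latter call lost under 6 of 17 settings. MRPL41 gave 0.24 ± 0.057 (FDR = 0.00642) and 0.19 ± 0.057 (FDR = 0.0194, lost under 4 settings), and MRPS24 gave 0.13 ± 0.046 (FDR = 0.0415, lost under 8 settings) and 0.19 ± 0.046 (FDR = 0.00716). With Si-FIBP#2, none of these 3 passed after median ratio scaling. The 3 least abundant members included MRPL50, which rose by 0.42 ± 0.074 (FDR = 0.0013) and 0.38 ± 0.074 (FDR = 0.00209), and MRPS14, which rose by 0.29 ± 0.087 (FDR = 0.0203) and 0.41 ± 0.087 (FDR = 0.00372), the former call lost under 5 settings, median ratio scaling among them (0.20, FDR = 0.103).

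When the members were sorted by their place in the ribosome, both subunits held rises and falls, and which of them prevailed turned with median ratio scaling in several classes, as it did over all genes (from 27.8% higher and 19.9% lower to 21% and 25.5% in Si-FIBP#1 cells, and from 31.1% and 17.7% to 20.5% and 26.5% in Si-FIBP#2 cells). Of the 51 large-subunit members, 17 rose and 8 fell in Si-FIBP#1 cells, and 25 rose and 8 fell in Si-FIBP#2 cells. Of the 26 small-subunit members, 12 rose and 3 fell, and 12 rose and 4 fell. After median ratio scaling the large subunit had 13 rises and 8 falls in Si-FIBP#1 cells, and 9 rises and 13 falls in Si-FIBP#2 cells, and the small subunit 6 and 8, and 6 and 10. By origin, the 46 members with a bacterial counterpart had 15 rises and 8 falls in Si-FIBP#1 cells and 18 rises and 11 falls in Si-FIBP#2 cells, with median log2 differences of 0.101 and 0.0998. The 31 mitochondria-specific members had 14 rises and 3 falls, and 19 rises and 1 fall, with medians of 0.143 and 0.192. Under that scaling the former had 8 rises and 12 falls, and 8 rises and 15 falls, and the latter 11 and 4, and 7 and 8. On the TPM scale rises prevailed in all 4 classes with both siRNAs. No test of the difference between these classes was run.

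The promoters printed above were picked for the ETS string, so they do not show how often it occurs. Of the 29 members with it, 11 rose and 4 fell in Si-FIBP#1 cells, and 15 rose and 4 fell in Si-FIBP#2 cells, with median log2 differences of 0.143 and 0.192. These were 37.9% and 13.8% of them, and 51.7% and 13.8%, where 28.8% of all tested genes with the string were higher and 20.5% lower, and 31% and 20.1%. The 40 without it had 15 rises and 7 falls (37.5% and 17.5%, against 29.1% and 22.7% of all tested genes without it), and 17 rises and 8 falls (42.5% and 20%, against 33.2% and 19.9%), with medians of 0.039 and 0.058. Over all tested genes with a promoter the medians in Si-FIBP#1 cells were 0.06 with the string and 0.064 without it, and those in Si-FIBP#2 cells 0.069 and 0.104. Of the genes of the factors, GABPB1 fell with both siRNAs (log2 -0.63, FDR = 0.00155, and -0.78, FDR = 0.000436) and so did NRF1 (-0.28, FDR = 0.0464, and -0.40, FDR = 0.00978). GABPA and MYC fell in Si-FIBP#2 cells (-0.28, FDR = 0.0105, and -0.68, FDR = 3.12e-05). These calls stood on the TPM scale and after median ratio scaling. In all, 2 of the 9 listed regulators fell in Si-FIBP#1 cells and 4 in Si-FIBP#2 cells, where 19.9% and 17.7% of all genes were lower. After median ratio scaling 2 and 5 fell, where 25.5% and 26.5% of all genes were lower. None of the 9 rose in either case.

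Some members have a second gene that starts nearby on the opposite strand. In GENCODE 29 (GRCh38), 25 of the 78 had a protein-coding gene that starts on the opposite strand between 1000 bases before and 500 bases after their own start. The same count was not made over all genes, so it does not set the members apart. Of the 25 pairs, 22 had both genes tested. With Si-FIBP#1, 2 pairs were called in the same direction, 3 in opposite directions, 8 in the member alone, 4 in the neighbour alone and 5 in neither. With Si-FIBP#2 these counts were 2, 6, 6, 2 and 6. Since 47.7% and 48.8% of all genes were called in these comparisons, pairs of each kind also occur among unrelated genes, and the counts are a description only.

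Among neighbours of members some pairs had the same direction and others opposite ones. MRPL18 fell together with TCP1, a subunit of the cytosolic chaperonin, which starts 63 bases away and gave -0.58 (FDR = 1.83e-05) and -0.63 (FDR = 1.24e-05). MRPL54 rose together with APBA3, which starts 965 bases away, near the limit of the window (0.60, FDR = 0.00103, and 0.36, FDR = 0.0164). MRPL47 fell while NDUFB5, a complex I subunit that starts 36 bases away, rose (0.56, FDR = 0.00116, and 0.52, FDR = 0.00169). MRPL57 rose while SKA3, a kinetochore protein, fell (-1.45, FDR = 3.92e-06, and -1.07, FDR = 2.7e-05). NCAPD2, a condensin subunit that shares 31.3% of the exonic bases of MRPL51, fell (-0.71, FDR = 3.51e-06, and -0.80, FDR = 2.28e-06). EME1, which encodes a subunit of the MUS81 endonuclease and was chosen here after its values were seen, starts 6 bases from MRPL27. EME1 fell (-1.57, FDR = 2.22e-06, and -1.47, FDR = 3.72e-06), while MRPL27 gave 0.021 ± 0.061 (FDR = 0.796) in Si-FIBP#1 cells and rose by 0.33 ± 0.061 (FDR = 0.0016) in Si-FIBP#2 cells.

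Of the RNAs that the mitochondrial ribosome contains and translates, both rRNAs rose with each siRNA and under each scaling, whereas the count of mRNAs that rose depended on the siRNA and the scaling. MT-RNR2, the large-subunit rRNA, was measured at 837.86, 879.43 and 915.03 FPKM in Scramble, 1757.59, 1731.6 and 1905.54 in Si-FIBP#1 cells, and 1891.88, 1655.51 and 1672.25 in Si-FIBP#2 cells. MT-RNR1, the small-subunit rRNA, was measured at 567.21, 580.23 and 568.37 FPKM, 799.63, 858.39 and 827.78, and 979.38, 898.17 and 941.36. No Scramble sample reached a siRNA sample, and the log2 differences were 1.03 ± 0.062 (FDR = 1.94e-06) and 0.99 ± 0.062 (FDR = 3.05e-06) for MT-RNR2, and 0.53 ± 0.043 (FDR = 1.12e-05) and 0.71 ± 0.043 (FDR = 2.55e-06) for MT-RNR1. These RNAs carry short tails and were measured after poly(A) selection, and whether their selection differed between samples was not tested. All 13 mitochondrial mRNAs rose in Si-FIBP#1 cells, with a median of 0.473, and 10 of 13 rose in Si-FIBP#2 cells, with a median of 0.305. MT-CO3, a core subunit of cytochrome oxidase, rose most among them in Si-FIBP#1 cells (0.79 ± 0.041, FDR = 8.91e-07). After median ratio scaling 13 and 7 of the 13 mRNAs rose. Of all genes tested, 27.8% and 31.1% were higher as reported, and 21% and 20.5% after median ratio scaling.

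Other genes of mitochondrial translation gave mixed counts. Of 25 assembly factors, 9 rose and 4 fell in Si-FIBP#1 cells, and 8 rose and 3 fell in Si-FIBP#2 cells, shares of 36% and 16%, and of 32% and 12%, near those of all genes (27.8% and 19.9%, and 31.1% and 17.7%). NSUN4, an rRNA methyltransferase that acts in subunit joining, rose by 0.81 ± 0.11 (FDR = 0.000234) and 0.90 ± 0.11 (FDR = 0.000125), and NOA1, a GTPase, by 0.83 ± 0.06 (FDR = 5.34e-06) and 0.57 ± 0.06 (FDR = 5.82e-05). MRM2, an rRNA methyltransferase, fell, with differences of -0.29 ± 0.071 (FDR = 0.00778) and -0.27 ± 0.071 (FDR = 0.0121). Its falls were not the largest, since the lowest differences among the 25 were -0.42 in Si-FIBP#1 cells and -0.40 in Si-FIBP#2 cells. MTG1 went from a mean of 31.5 FPKM in Scramble to 23.4 in Si-FIBP#1 cells, and NGRN from 54.4 to 40.9 in Si-FIBP#2 cells. Of 16 translation factors, 7 rose and 0 fell in Si-FIBP#1 cells (43.8% and 0%), and 8 rose and 1 fell in Si-FIBP#2 cells (50% and 6.25%). TSFM, an elongation factor, rose by 0.47 ± 0.077 (FDR = 0.000798) and 0.43 ± 0.077 (FDR = 0.0013). After median ratio scaling the translation factors had 6 rises and 2 falls, and 2 rises and 6 falls, and the assembly factors 6 and 7, and 5 and 6.

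Of the 5 measured mitoribosome proteins without an MRP symbol, DAP3 rose with both siRNAs (0.32 ± 0.052, FDR = 0.000823, and 0.26 ± 0.052, FDR = 0.00265), the latter not after median ratio scaling (0.11, FDR = 0.103), and GADD45GIP1 fell in Si-FIBP#2 cells (-0.33 ± 0.088, FDR = 0.012). Of the 5 genes of mitochondrial transcription, 2 fell in Si-FIBP#1 cells (3 on the TPM scale and after median ratio scaling). In Si-FIBP#2 cells 3 fell under each scaling, and none rose with either siRNA. Of all genes 19.9% and 17.7% were lower as reported, 21.2% and 17.1% on the TPM scale, and 25.5% and 26.5% after median ratio scaling. TFAM, which packages the mitochondrial genome and acts in its transcription, was measured at 43.06, 40.28 and 41.99 FPKM in Scramble, 24.19, 24.11 and 24.35 in Si-FIBP#1 cells, and 25.65, 21.6 and 23.96 in Si-FIBP#2 cells. It fell with both siRNAs and under each scaling, with log2 differences of -0.76 ± 0.067 (FDR = 1.76e-05) and -0.79 ± 0.067 (FDR = 1.58e-05).

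Other large gene families are given for comparison. The 77 cytosolic ribosomal protein genes had a median log2 difference of 0.0891 in Si-FIBP#1 cells, with 32 higher and 4 lower, and of 0.00888 in Si-FIBP#2 cells, with 10 higher and 11 lower. These were 41.6% and 5.19% of them, and 13% and 14.3%. The 78 nuclear oxidative phosphorylation genes had medians of 0.149 and 0.215, with 35 higher and 5 lower, and 45 higher and 4 lower. These were 44.9% and 6.41% of them, and 57.7% and 5.13%. All genes had medians of 0.0733 and 0.111, with 27.8% higher and 19.9% lower, and 31.1% and 17.7%. With median ratio scaling the cytosolic genes had 7 higher and 17 lower, and 0 higher and 39 lower, and the oxidative phosphorylation genes 23 higher and 11 lower with each siRNA. Under that scaling all genes had 21% higher and 25.5% lower, and 20.5% and 26.5%. On the TPM scale the cytosolic genes split into 18 higher and 13 lower, and 10 higher and 12 lower. The oxidative phosphorylation genes then had 28 higher and 6 lower, and 45 higher and 4 lower. The shares of all genes on this scale were 23.8% and 21.2%, and 30.2% and 17.1%. No test between these families was run.

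Near-identical copies limit some members. The FPKM of annotated pseudogenes, counted apart from the member, came to at most 38.6% of the member's own FPKM for MRPL45 in any sample, 30.6% for MRPS31, 7.79% for MRPS18C, 3.14% for MRPL35 and below 1% for the other members with such copies, so MRPL45 and MRPS31 are uncertain. Exons of 41 members overlapped those of another gene, 12 of them over more than 20% of the member's exonic bases and 29 with a gene on the other strand, and the counting kept no strand.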

How the data were processed

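RNA of 9 samples of H1299 cells was sequenced after poly(A) selection with a library kit that keeps no strand, and groups and replicate numbers came from the sample labels. The authors deposited 1 transcript table per sample, with FPKM values of 2 decimals for Ensembl and assembled transcripts; HISAT2 and StringTie are named in the submitters' processing notes, and versions, build and annotation are not given in the sources used here. No label names the unit, and FPKM follows from how the deposited values behave.

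FPKM was summed over the 533 member transcripts per gene. Genes at 1 FPKM or more in at least 3 samples were tested in 1 fit over all samples on log2(FPKM + 1), so fold changes of low genes are understated, with limma 3.58.1 (trend) in R 4.3.3 and Benjamini-Hochberg adjustment, at an FDR of 0.05. The script was tested on simulated data. Figures were drawn with matplotlib 3.10.9. Positions came from GENCODE 29 (GRCh38) by Ensembl identifier. Named genes were FIBP, members past 2-fold, the 6 largest shared rises and falls, and the 4 largest differences between siRNAs. The 3 most and 3 least abundant, members picked by role and some of those called or changed most in other lists were also named. Members shown only as settled in every setting or as neighbours lie outside this rule. The members and lists were chosen with earlier results of these data known. Alternatives were TPM, median ratio scaling, a pseudocount of 0.1, no minimum level, a minimum of 5 FPKM, a fit of the compared groups alone, annotated transcripts only, the replicate block and each sample left out.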

Additional observations from a re-analysis of the deposited data

Results flagged for a closer look

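The level after Si-FIBP#2 differed from that after Si-FIBP#1 in 13 members, by the limma test of the difference itself (FDR below 0.05), a share of 16.7% where 15.4% of all genes differed. On the log2(FPKM + 1) scale and as Si-FIBP#2 minus Si-FIBP#1, the difference was -1.07 for MRPS12, -0.42 for MRPL24, -0.27 for MRPL1, -0.26 for MRPL32, -0.22 for MRPL12, -0.22 for MRPS2, -0.20 for MRPL3 and -0.17 for MRPS21. It was 0.23 for MRPL48, 0.24 for MRPL14, 0.31 for MRPL27, 0.32 for MRPS30 and 0.33 for MRPS34. MRPS12, MRPL24, MRPL14 and MRPS34 kept their call under all 17 other settings. The other 9 lost it under 1 (MRPL27) to 13 of them (MRPS2 and MRPS21). Groups of 3 samples were too small for a check of single outlying samples.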

How the results depend on the processing

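Scaling moved the median of the members more than any other choice, and it moved the median of all genes along with it. The median log2 difference was 0.0824 on the TPM scale and 0.0267 after median ratio scaling in Si-FIBP#1 cells, 0.00901 after median ratio scaling in Si-FIBP#2 cells, 0.0046 after it for both siRNAs against Scramble (0.126 as reported), and, between the siRNAs (-0.0152 as reported), 0.0293 on the TPM scale and -0.0627 after median ratio scaling. Leaving out each sample in turn gave medians of 0.0947 to 0.136 in Si-FIBP#1 cells, 0.139 to 0.177 in Si-FIBP#2 cells and -0.0252 to 0.0135 between the siRNAs, where the sign turned without Si-FIBP#1 replicate 2 (0.0115) and without Si-FIBP#2 replicate 1 (0.0135). With a fold above 2 the number of members called was 0 in Si-FIBP#1 cells (1, MRPL10, under 4 of 17 other settings), 0 in Si-FIBP#2 cells (2, MRPS10 and MRPS12, after median ratio scaling), 0 for both together and 1 between the siRNAs (MRPS12, under all 17). Against Scramble, the gap between the median of the members and that of all genes was 0.0751 and 0.0742 with a filter of 5 FPKM, and 0.128 and 0.154 without a filter, where the median of all genes was 0. As reported the gap was 0.0545 and 0.043. Scaling moved it less than the filter did, to 0.0442 and 0.0371 on the TPM scale and 0.0431 and 0.0273 after median ratio scaling. Between the siRNAs the 13 calls became 4 without a filter, 8 with only the groups compared and 6 to 16 with a sample left out, fewest without Si-FIBP#2 replicate 3 (6). They were 8 without Scramble replicate 2, and 7 each without Si-FIBP#1 replicate 1, Si-FIBP#1 replicate 3 or Si-FIBP#2 replicate 1. The share of all genes called moved as well, from 15.4% to 1.53% without a filter and 11.4% with only the groups compared. With a sample left out it ran from 8.55% (without Si-FIBP#2 replicate 3) to 19.1% (without Si-FIBP#2 replicate 2). Against Scramble, leaving out a sample gave 35 to 47 calls in Si-FIBP#1 cells and 41 to 49 in Si-FIBP#2 cells. The share of all genes called then ran from 40.5% to 51.4%, and from 41.7% to 48.5%. Deviations of same-numbered samples correlated by -0.0568 to 0.103, and those of samples with unlike numbers by -0.142 to 0.049. Whether the numbers pair the samples was not settled by these values. With the replicate block 40 members were called in Si-FIBP#1 cells, 49 in Si-FIBP#2 cells, 48 with both and 12 between the siRNAs. The shares of all genes called with the block were 47.3%, 48.6%, 53% and 14.5%. Of the 29 rises and 11 falls in Si-FIBP#1 cells, 18 and 10 held under all 17 other settings, and of the 38 and 12 in Si-FIBP#2 cells, 15 and 11 did. How many of all genes held in this way was not counted, so these numbers are not a result about the set. The MRPL to MRPS ratio of Si-FIBP#2 minus Scramble was 0.089, and 0.00535 without MRPS12, an alternative chosen after seeing the data. The other causes were not tested. Depth, which is known only by estimate, limits the levels of low members.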

Other observations

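MRPS11 and MRPL46, a small-subunit and a large-subunit gene that start next to each other on opposite strands, were called in neither siRNA comparison, and transcripts assembled by the authors held 60.6% to 66.7% of the FPKM of MRPS11. Searches for other strings gave a CCAAT box in 29% of member promoters against 37.2% of those of tested genes, a TATAAA string in 2.9% against 5.39%, and a CACGTG string in 8.7% against 10.4%. MRPS18A, whose level did not pass the test, had its main transcript at 91.4% of its FPKM in Scramble, 74.2% in Si-FIBP#1 cells and 84% in Si-FIBP#2 cells. These values were chosen after they were seen, and the shares were not tested.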
